A study of Zea mays with 16 samples.

Results

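LOB15 and LOB21 are maize genes of the LOB domain family, and their transcripts were followed in roots before, during and after waterlogging. Every probe set named LOB15 or LOB21 was taken, whatever its values, through the platform annotation of the array, a synonym in the RefSeq gene table or the name in the gene lists of the study. The rule found 2 genes among 2702 that could be tied to a gene record, measured by 3 of the 17734 probe sets. A probe set is a group of short DNA probes on the array that together report one transcript. LOB15 (gene model GRMZM2G060544) had 1 probe set, Zm.12212.1.A1_at. LOB21 (GRMZM2G092483) had 2, Zm.11677.2.A1_at and Zm.11677.1.A1_s_at. The ending _s_at marks probes that match more than one transcript. Which other transcripts these are is not given in the sources used here, so the latter is called the shared probe set of LOB21 and its values cannot be assigned to LOB21 alone.

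LOB is short for LATERAL ORGAN BOUNDARIES, and the proteins with this domain are transcription factors found only in plants. In Arabidopsis, several members are switched on by auxin response factors and start lateral roots. In maize, the member rtcs is needed for crown and seminal roots, ra2 for branching of the inflorescence and IG1 for leaf and embryo sac development. Waterlogged soil holds little oxygen, and maize responds with new adventitious roots and air channels in the cortex, in which auxin and ethylene take part. No role of LOB15 or LOB21 themselves was known with certainty, so none is stated.

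The RefSeq table (assembly Zm-B73-REFERENCE-NAM-5.0) lists 13 genes with a LOB domain name. A probe set was named for 2 of them, LOB15 and LOB21, so the other members, rtcs, ra2 and IG1 among them, were not analysed here. In the order of genes along the chromosome, rtcs is the next gene after LOB21. A further probe set with the cluster number of the shared one, Zm.11677.1.A1_at, carried no gene name and stood at 2.007, the lowest value of the data, on all 16 arrays.

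The arrays measured total RNA from roots of 2 inbred lines, HKI1105, classed as tolerant, and V-372, classed as susceptible. Plants grown in pots of sandy loam were sampled at control (day 28 after sowing, not waterlogged), at moderate stress (day 32, waterlogged), at severe stress (day 35, waterlogged for 7 days) and at recovery (day 42, after drainage). The days are those of the sample labels, and the protocol text and the methods differ on when the pots were sealed and drained. Each of these 8 groups had 2 arrays. The labels call the 2 arrays biological replicates and the methods call them technical, so a p-value here speaks of the spread between arrays and of nothing wider. The plants of each stage were older than those of the stage before, and no unstressed plants of the later days were included, so stage and plant age cannot be told apart. Each root sample mixed all cell types, and fewer cells of a type and less RNA per cell cannot be told apart.

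Levels are log2 values, in which 1 unit is a 2-fold difference. They ran from 2.007 to 15.563, and 32.3% of them lay within 1 unit of the lowest value, called near the floor below. The medians of the arrays ran from 6.92 to 7.18, and the 2 arrays of a group correlated at 0.996 to 0.999 over all probe sets. The HKI1105 control stood apart from the other groups. Its probe sets for RNA added before labelling had a median of 9.79, against 6.16 to 7.41 in the other groups, and its 17 root marker probe sets had a median of 3.94, against 5.62 to 10.31. The water channel TIP2-2 was at 4.54 in it and at 9.85 to 12.98 elsewhere, and por2, another water channel of roots, was at 7.95 and at 12.08 to 14.20. Not every root marker was low there. A pair of probe sets of the silicon transporter Lsi1 were at 10.17 and 10.86 in the HKI1105 control and at 6.82 and 7.66 in the V-372 control, and 1 of 6 piip1 probe sets was highest in the HKI1105 control (11.84). Leaf markers were also measured in these root samples. The median of 22 leaf marker probe sets was 6.71, 9.67, 8.64 and 5.20 in HKI1105 from control to recovery, and 3.12, 8.22, 12 and 8.30 in V-372, so it was highest in V-372 at severe stress. The probe sets of rbcS, the small subunit of Rubisco, reached 12.40 and 14.68 there. Not every leaf marker was high there. CA was at 5.48, against 8.05 in the V-372 control, and an lhcb6 probe set was at 2.01 in both. From the V-372 control to severe stress 16 of the 22 rose and 2 fell, where 17.5% of all probe sets rose and 31.7% fell. The changes of LOB15 and LOB21 from the HKI1105 control are therefore also given against the V-372 control, and so are the counts of the gene lists that use it.

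**Figure D1:**
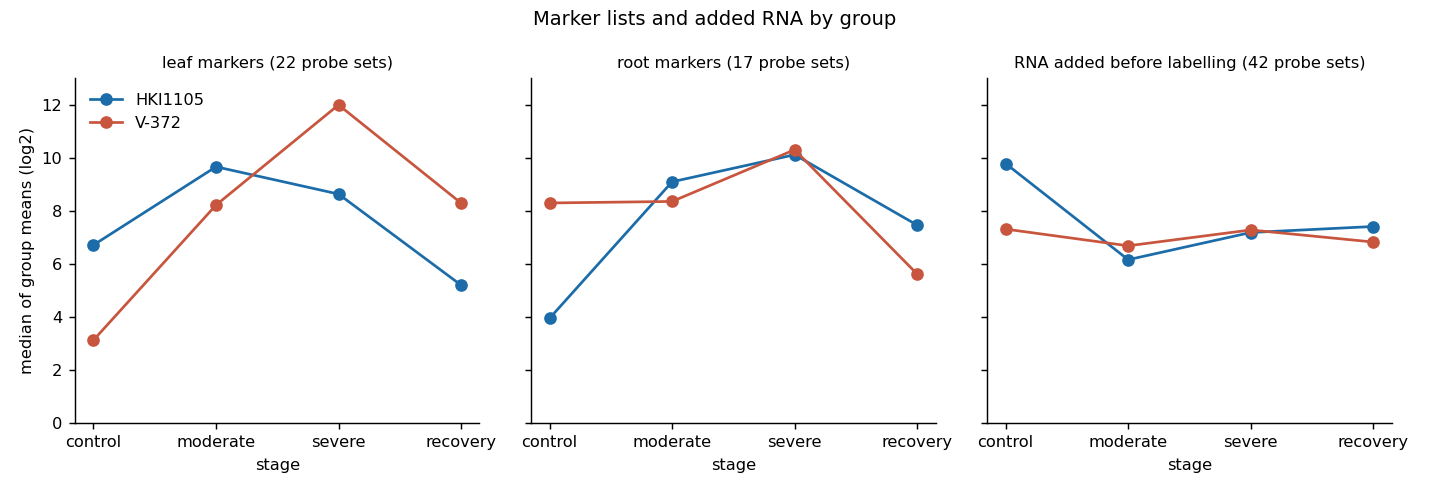
Median level (log2, vertical axis) of the leaf markers, the root markers and the RNA added before labelling at each stage, with HKI1105 in blue and V-372 in red; each point is the median of the group means. The added RNA is highest (9.79) and the root markers lowest (3.94) in the HKI1105 control, and the leaf markers are highest (12) in V-372 at severe stress.

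LOB15 was low in the unstressed roots of both lines, rose at moderate stress in both, and then stayed high at severe stress in HKI1105 but not in V-372. In the HKI1105 control it was at 3.33 and 4.14, and at moderate stress at 8.82 and 9.04. In the V-372 control it was at 4.20 and 4.33, and at moderate stress at 9.30 and 9.40. In each line both arrays at moderate stress lay more than 4 units above both control arrays, and the levels of the 2 lines at moderate stress lay side by side.

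At severe stress the lines separated. LOB15 was at 8.30 and 7.52 on the HKI1105 arrays, below its moderate level, and at 4.18 and 4.20 on the V-372 arrays, close to the V-372 control. At recovery HKI1105 was at 5.24 and 5.54, above its control but below both stress stages, while both V-372 arrays read 4.17. The V-372 values from control, severe stress and recovery lay close together, and some single arrays tied. The 2 recovery arrays had the same value, and so did 1 control array and 1 severe stress array (4.20). Such ties were common in these data, with 46.2% of all probe sets having the same value on 2 or more arrays. No array put LOB15 near the floor. Whether its low V-372 values measured transcript or background was not tested, so folds that use them may be no exact size.

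**Figure D2:**
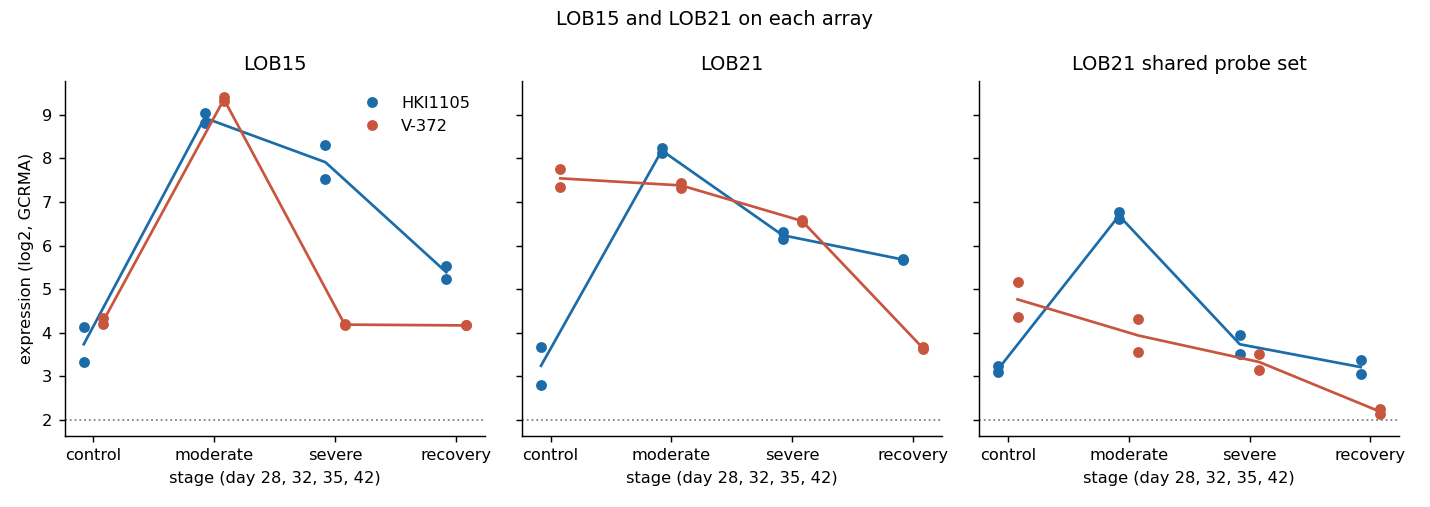
Level (log2, vertical axis) of LOB15, LOB21 and the shared probe set of LOB21 at each stage (horizontal axis) in HKI1105 (blue) and V-372 (red); each point is 1 array, lines join the means of 2 arrays, and the dotted line is the lowest value of the data (2.007). LOB15 peaks at moderate stress in both lines and stays high at severe stress in HKI1105 (7.91) but not in V-372 (4.19), while LOB21 starts low in HKI1105 (3.24) and high in V-372 (7.54).

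The changes from control were tested with limma on the log2 values of all 16 arrays, and a change was called at an adjusted p under 0.05 over all probe sets. Errors are standard errors with 2 arrays a group. At moderate stress LOB15 rose by 5.19 ± 0.29 in HKI1105 (36.5-fold, adjusted p = 4.98e-07). In V-372 it rose by 5.09 ± 0.29 (34.0-fold, adjusted p = 1.65e-06). There were 217 probe sets with a larger rise in HKI1105 and 103 in V-372. LOB15 was one of 206 probe sets (1.16%) that rose at least 5-fold at p of 0.001 or less, the thresholds of the methods, at moderate stress in both lines. The rise differed between the lines by 0.10 (95% interval −0.84 to 1.04, adjusted p = 1). No difference was called, and with 2 arrays a group the interval leaves room for one of about 1 unit in either direction.

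At severe stress LOB15 was 4.17 ± 0.29 above control in HKI1105 (18.0-fold, adjusted p = 2.98e-06). In V-372 the change was −0.08 (95% interval −0.74 to 0.58, adjusted p = 1). At recovery it was still 1.65 ± 0.29 above control in HKI1105 (3.14-fold, adjusted p = 0.00125), which passed the test but not the 5-fold threshold of the methods. In V-372 the change at recovery was −0.10 (95% interval −0.76 to 0.57, adjusted p = 1). The difference between the lines was itself past the threshold at both stages, at 4.25 ± 0.41 for severe stress (adjusted p = 2.1e-05) and 1.75 ± 0.41 for recovery (adjusted p = 0.00666). With the V-372 control used in place of the HKI1105 control, a setting chosen after seeing the data, LOB15 remained higher in HKI1105 by 4.66 at moderate stress, 3.65 at severe stress and 1.12 at recovery (adjusted p = 0.0105 for the last).

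The step from one stage to the next uses no control array. In V-372 LOB15 fell by 5.17 ± 0.29 from moderate to severe stress (35.9-fold, adjusted p = 6.58e-07), and only 53 of all probe sets fell further. In HKI1105 it fell by 1.02 ± 0.29 over the same step (adjusted p = 0.0265). That smaller fall was not called without moderate stress array 1 (adjusted p = 0.055), moderate stress array 2 (0.128) or severe stress array 2 (0.182), and the fall was 0.63 without the last. The main fall in HKI1105 came from severe stress to recovery, at 2.52 ± 0.29 (5.74-fold, adjusted p = 0.000208), a step over which V-372 changed by −0.02 (adjusted p = 1). Both steps differed between the lines, by 4.15 ± 0.41 for moderate to severe (adjusted p = 3.99e-05) and by −2.50 ± 0.41 for severe to recovery (adjusted p = 0.00107). Leaf markers moved in these steps too. From moderate to severe stress 16 of the 22 leaf marker probe sets rose and 1 fell in V-372. In HKI1105 1 rose and 12 fell. Of all probe sets, 28.1% fell over this step in V-372 and 13.8% in HKI1105, and the share that rose is not given here. The median step of the leaf markers was 2.06 in V-372 and −0.69 in HKI1105, and that over all probe sets was 0 in both. The part of the leaf markers in the LOB15 difference was not tested.

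Compared directly at the same stage, LOB15 was 13.2-fold higher in HKI1105 than in V-372 at severe stress (3.72 ± 0.29, adjusted p = 5.68e-06) and 2.33-fold higher at recovery (1.22 ± 0.29, adjusted p = 0.0089). The recovery difference was 1.07 (adjusted p = 0.0611) without HKI1105 recovery array 2. At moderate stress the lines differed by −0.43 (95% interval −1.09 to 0.24, adjusted p = 0.325). At control they differed by −0.53 (95% interval −1.19 to 0.13, adjusted p = 0.165), which became −0.93 (adjusted p = 0.0232) without HKI1105 control array 2.

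LOB21 followed another course, and the lines differed in it before any water was added. In the HKI1105 control it was at 2.81 and 3.67, the former near the floor, and in the V-372 control at 7.33 and 7.75. At moderate stress HKI1105 was at 8.24 and 8.12 and V-372 at 7.31 and 7.44. LOB21 thus went from low to high in HKI1105, while in V-372 it was already high and stayed so.

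At severe stress the lines lay close, at 6.15 and 6.32 in HKI1105 and at 6.58 and 6.55 in V-372. At recovery they parted again, with HKI1105 at 5.68 and 5.67 and V-372 at 3.63 and 3.67. The V-372 recovery level was thus near that of the HKI1105 control, where LOB21 was also low, and HKI1105 control array 2 and V-372 recovery array 2 shared the value 3.67. These 2 groups were also those with the lowest root marker medians (3.94 and 5.62), and the part of that in the LOB21 levels was not tested.

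Against its own control, LOB21 rose in HKI1105 by 4.94 ± 0.24 at moderate stress (30.6-fold, adjusted p = 2.05e-07), by 2.99 ± 0.24 at severe stress (7.96-fold, adjusted p = 7.64e-06) and by 2.43 ± 0.24 at recovery (5.40-fold, adjusted p = 3.51e-05). All 3 rises rest on the HKI1105 control, which stood apart. With the V-372 control in its place, HKI1105 differed by 0.64 (adjusted p = 0.0603) at moderate stress, by −1.30 at severe stress (adjusted p = 0.00184) and by −1.86 at recovery (adjusted p = 0.00018). The direction at severe stress and recovery thus turned with the control that was used.

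In V-372, LOB21 changed by −0.16 at moderate stress (95% interval −0.71 to 0.39, adjusted p = 0.835). It fell by 0.98 ± 0.24 at severe stress (adjusted p = 0.0079), which was −0.77 and not called without V-372 control array 2 (adjusted p = 0.0629). It fell by 3.89 ± 0.24 at recovery (14.8-fold, adjusted p = 1.49e-06), and 155 probe sets fell further. The recovery fall is the one stage-to-control change of LOB21 that does not use the HKI1105 control and that passed both thresholds.

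**Figure D3:**
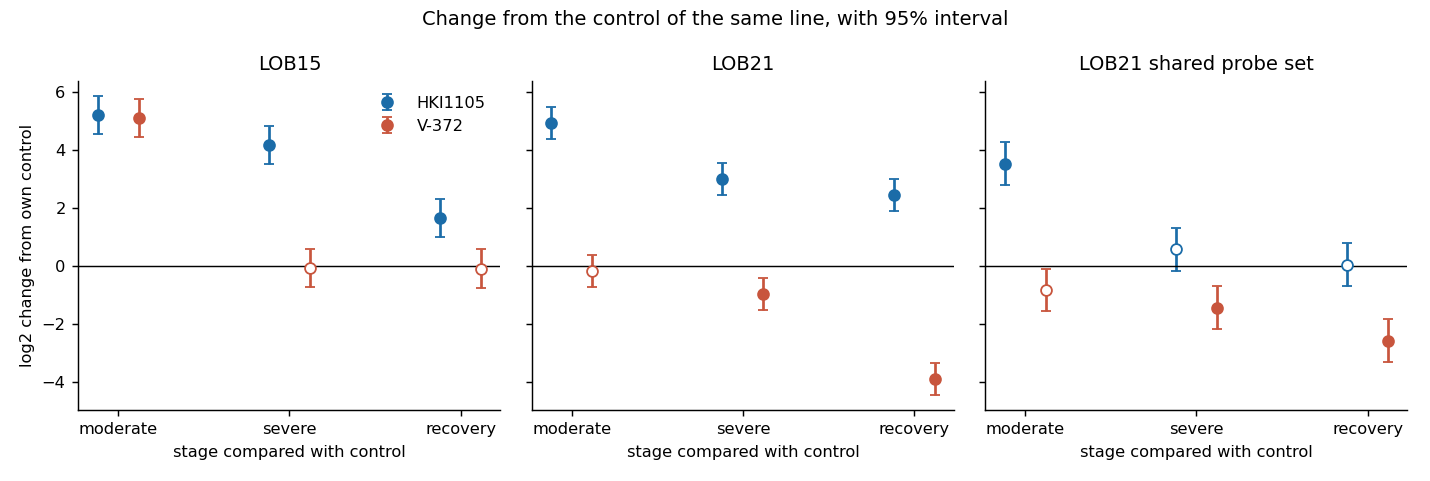
Change from the control of the same line (log2, vertical axis) at moderate stress, severe stress and recovery for LOB15, LOB21 and the shared probe set of LOB21; blue points are HKI1105, red points V-372, bars are 95% intervals, and open points were not called. LOB15 rises by similar amounts in both lines at moderate stress (5.19 and 5.09), and LOB21 rises in HKI1105 (4.94) and falls in V-372 at recovery (−3.89).

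From stage to stage, without any control array, LOB21 fell in both lines. In HKI1105 it fell by 1.94 ± 0.24 from moderate to severe stress (3.85-fold, adjusted p = 0.000301) and changed by −0.56 from severe stress to recovery (adjusted p = 0.124). In V-372 it fell by 0.81 ± 0.24 from moderate to severe stress (adjusted p = 0.0211) and by 2.91 ± 0.24 from severe stress to recovery (7.53-fold, adjusted p = 8.12e-06). The V-372 fall from moderate to severe stress was not called when any of its 4 arrays was left out (adjusted p = 0.0574 to 0.0978).

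The order of the falls therefore differed between the lines, with the larger fall before severe stress in HKI1105 and after it in V-372. The test of that difference gave −1.13 ± 0.34 for moderate to severe (adjusted p = 0.0256) and 2.35 ± 0.34 for severe to recovery (adjusted p = 0.000505). The call of the former was lost when any 1 of 6 of its 8 arrays was left out (highest adjusted p = 0.0795), which were both HKI1105 moderate stress arrays, HKI1105 severe stress array 1, V-372 moderate stress array 1 and both V-372 severe stress arrays. The latter held in every such fit.

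At the same stage, the HKI1105 level of LOB21 minus that of V-372 was −4.30 ± 0.24 at control (19.7-fold lower, adjusted p = 5.94e-07). At recovery LOB21 was higher in HKI1105 by 2.02 ± 0.24 (4.07-fold, adjusted p = 0.000163). At moderate stress it was higher by 0.80 ± 0.24 (adjusted p = 0.0268), a call lost without any one of the 4 arrays (adjusted p = 0.0693 to 0.118). At severe stress the lines differed by −0.33 (95% interval −0.88 to 0.22, adjusted p = 0.341). The changes from control differed between the lines by 5.10 ± 0.34 at moderate stress, 3.97 ± 0.34 at severe stress and 6.32 ± 0.34 at recovery (80.0-fold, adjusted p = 7.78e-07), and each of these values contains the gap of −4.30 between the controls.

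The shared probe set of LOB21 followed part of the same course. In HKI1105 it was at 3.24 and 3.09 at control, 6.60 and 6.77 at moderate stress, 3.96 and 3.51 at severe stress and 3.05 and 3.38 at recovery. Its peak at moderate stress stood clear of all other arrays of both lines. HKI1105 control and recovery overlapped, and severe stress lay just above them. In V-372 it was at 5.17 and 4.36 at control, 4.32 and 3.55 at moderate stress, 3.15 and 3.51 at severe stress and 2.13 and 2.25 at recovery, so that each stage lay below the one before, by a narrow margin as far as severe stress. Both recovery arrays were near the floor.

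On this probe set the rise at moderate stress in HKI1105 was 3.52 ± 0.32 (11.5-fold, adjusted p = 1.4e-05), and it was 1.92 (adjusted p = 0.00109) against the V-372 control. The changes in HKI1105 at severe stress (0.57, 95% interval −0.17 to 1.31, adjusted p = 0.187) and recovery (0.05, adjusted p = 1) were not called. Against the V-372 control these 2 changes were −1.03 (adjusted p = 0.0287) and −1.55 (adjusted p = 0.0033). On Zm.11677.2.A1_at, LOB21 was called at both stages. In V-372 the shared probe set fell by 1.44 ± 0.32 at severe stress (2.71-fold, adjusted p = 0.00485). At recovery its level was too near the floor for a fold, and the V-372 control was at least 3.38-fold higher (adjusted p = 0.000152). The change of −0.83 at moderate stress in V-372 had an adjusted p of 0.0876, and was called without V-372 control array 2 (adjusted p = 0.0291) or V-372 moderate stress array 1 (0.0329).

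Between stages the shared probe set fell by 2.95 ± 0.32 from moderate to severe stress in HKI1105 (7.73-fold, adjusted p = 0.000144). In V-372 severe stress was at least 1.25-fold higher than recovery (adjusted p = 0.0162), a bound because recovery was near the floor. This step was not called without V-372 recovery array 1 (adjusted p = 0.0735), recovery array 2 (0.0508) or severe stress array 2 (0.0979). The other steps were −0.52 in HKI1105 from severe stress to recovery (adjusted p = 0.309) and −0.61 in V-372 from moderate to severe stress (adjusted p = 0.177). Both LOB21 probe sets thus put the fall out of moderate stress in HKI1105 past the threshold, and for both the fall from severe stress to recovery was called in V-372 and not in HKI1105. The moderate to severe step differed between the lines on this probe set by −2.34 ± 0.46 (adjusted p = 0.00277) and the severe to recovery step by 0.61 (adjusted p = 0.369), a fitted value that uses the V-372 recovery level near the floor and is no exact size.

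At the same stage, the HKI1105 level of the shared probe set minus that of V-372 was −1.60 ± 0.32 at control (adjusted p = 0.00233) and 2.75 ± 0.32 at moderate stress (adjusted p = 0.000149). The difference at severe stress was 0.41 (adjusted p = 0.391). At recovery HKI1105 was at least 1.15-fold higher (adjusted p = 0.0337), a call lost without any one of the 4 arrays (adjusted p = 0.0627 to 0.169). The changes from control differed between the lines by 4.35 ± 0.46 at moderate stress, 2.0 ± 0.46 at severe stress and 2.62 ± 0.46 at recovery, of which the last uses the V-372 recovery level near the floor and is no exact size.

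The members called are set here beside the share of all probe sets called in the same direction. The 3 probe sets stand for 2 genes, so a count of 2 of 3 can be LOB21 alone. At moderate stress in HKI1105 all 3 LOB probe sets rose, where 26.5% of all probe sets did. At severe stress in HKI1105 2 of 3 rose against 27.1%, and at recovery 2 of 3 against 26.8%. In V-372 1 of 3 rose at moderate stress, LOB15, against 14.0%. There 2 of 3 fell at severe stress against 31.7% and 2 of 3 at recovery against 23.4%, each time the 2 probe sets named LOB21. No test of these shares was made.

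For the steps between stages, all 3 fell from moderate to severe stress in HKI1105 against 13.8% of all probe sets, and 1 of 3 fell from severe stress to recovery against 14.7%. In V-372 2 of 3 fell over the former step against 28.1%, and 2 of 3 over the latter against 20.6%. Between the lines, 2 of 3 were lower in HKI1105 at control against 29.9%, 2 of 3 were higher at moderate stress against 16.8%, 1 of 3 at severe stress against 27.2% and all 3 at recovery against 18.2%. The change from control was higher in HKI1105 for 2 of 3 at moderate stress against 25.1%, for 3 of 3 at severe stress against 32.4% and for 3 of 3 at recovery against 24.8%. In the moderate to severe step 1 of 3 had a higher change in HKI1105 against 25.4% and 2 of 3 a lower one against 16.6%. In the severe to recovery step these were 1 of 3 against 17.9% and 1 of 3 against 22.9%.

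**Figure D4:**
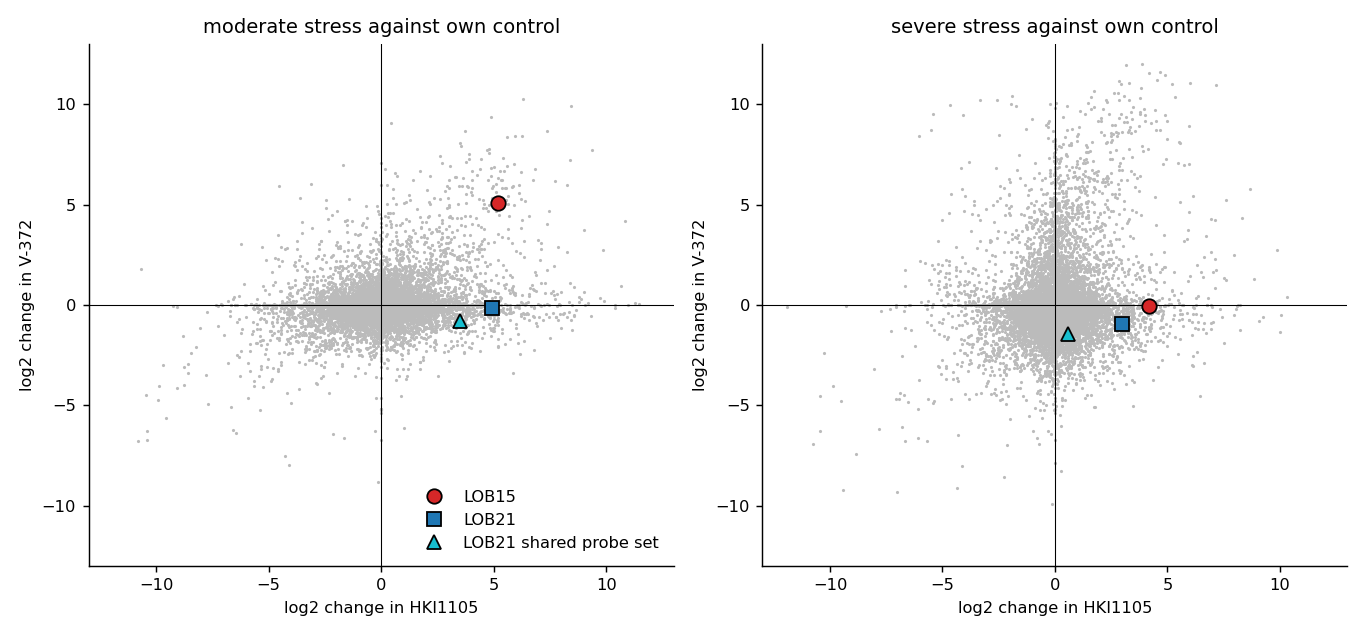
Change from own control (log2) in HKI1105 (horizontal axis) against V-372 (vertical axis) for all 17734 probe sets (grey dots), at moderate stress (left) and severe stress (right), with LOB15 as a red circle, LOB21 as a blue square and the shared probe set of LOB21 as a triangle. LOB15 lies far out on both axes at moderate stress (5.19 and 5.09) and on the HKI1105 axis alone at severe stress (4.17 and −0.08).

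Ordered by level, LOB15 was highest at moderate stress in V-372 (9.35 ± 0.069, SD) and in HKI1105 (8.93 ± 0.16), which did not differ beyond their spread (adjusted p = 0.325). Severe stress in HKI1105 followed (7.91 ± 0.55), then recovery in HKI1105 (5.39 ± 0.21), and then the V-372 control (4.26 ± 0.095, adjusted p = 0.0105), and each step from HKI1105 moderate stress down to it was called. Below that, V-372 severe stress (4.19 ± 0.015), V-372 recovery (4.17, both arrays equal) and the HKI1105 control (3.74 ± 0.57) followed with no call between neighbours. LOB15 thus had a high state, in both lines at moderate stress and in HKI1105 at severe stress, an intermediate level in HKI1105 at recovery, and a low one in the other 4 groups.

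The order for LOB21 was flatter. HKI1105 moderate stress (8.18 ± 0.083) and V-372 control (7.54 ± 0.30) differed with an adjusted p of 0.0603, and V-372 moderate stress (7.38 ± 0.091) came next. V-372 severe stress (6.56 ± 0.025), HKI1105 severe stress (6.24 ± 0.12) and HKI1105 recovery (5.67 ± 0.013) followed with no call between neighbours after the step from V-372 moderate to severe stress (adjusted p = 0.0211). The clear step was the one down to V-372 recovery (3.65 ± 0.033, adjusted p = 0.000163), and the HKI1105 control came last (3.24 ± 0.61, adjusted p = 0.198). On the shared probe set the clear step was at the top, between HKI1105 moderate stress (6.68 ± 0.12) and V-372 control (4.76 ± 0.57, adjusted p = 0.00109). From V-372 control down to the HKI1105 control (3.17 ± 0.11) no 2 neighbours were called apart, and V-372 recovery (2.19 ± 0.081) was below the last of them (adjusted p = 0.0306). Arrays of these 3 probe sets spread more than most, with residual SDs of 0.298 for LOB15, 0.247 for LOB21 and 0.332 for the shared probe set against a median of 0.101 over all.

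Named genes with the most similar course were found by the Pearson correlation of the 8 group means among 1035 named probe sets whose means spanned at least 1 unit. The values are a description over 8 points that share arrays, and no test was made. For LOB15 the closest were EREB179, of the AP2/EREBP transcription factors (r = 0.97), etr2, an ethylene receptor (0.95), psei6, a cystatin that inhibits cysteine proteases (0.94), GFT1 (0.90) and bHLH35, a basic helix-loop-helix factor (0.90). EREB179 was at 7.89 and 7.10 in HKI1105 at moderate and severe stress and at 6.99 in V-372 at moderate stress, and within 1 unit of the floor in the other 5 groups. The course of etr2 spanned far less, from 9.27 in the HKI1105 control to 11.14 in V-372 at moderate stress.

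For LOB21 the closest were pangloss2, a receptor-like protein that orients cell division in the leaf epidermis (r = 0.996), cyclin8, a cyclin (0.99), KIN8 and KIN13, motor proteins of the kinesin class (0.98 each), and fae1, an enzyme of the elongation of very long fatty acids (0.98). All 5 were lowest in the HKI1105 control or, for KIN8, equally low there and in V-372 at recovery (5.17). These are also the 2 groups in which LOB21 was lowest. For the shared probe set the closest were tub6, a beta-tubulin (r = 0.97), cyc2, a cyclin (0.92), rs2, a MYB factor that represses knotted1-like homeobox (KNOX) genes (0.89), tua6, an alpha-tubulin (0.89), and piip1 (0.89). The rs2 probe set was at 5.79 in HKI1105 at moderate stress and below 3 in each other group.

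**Figure D5:**
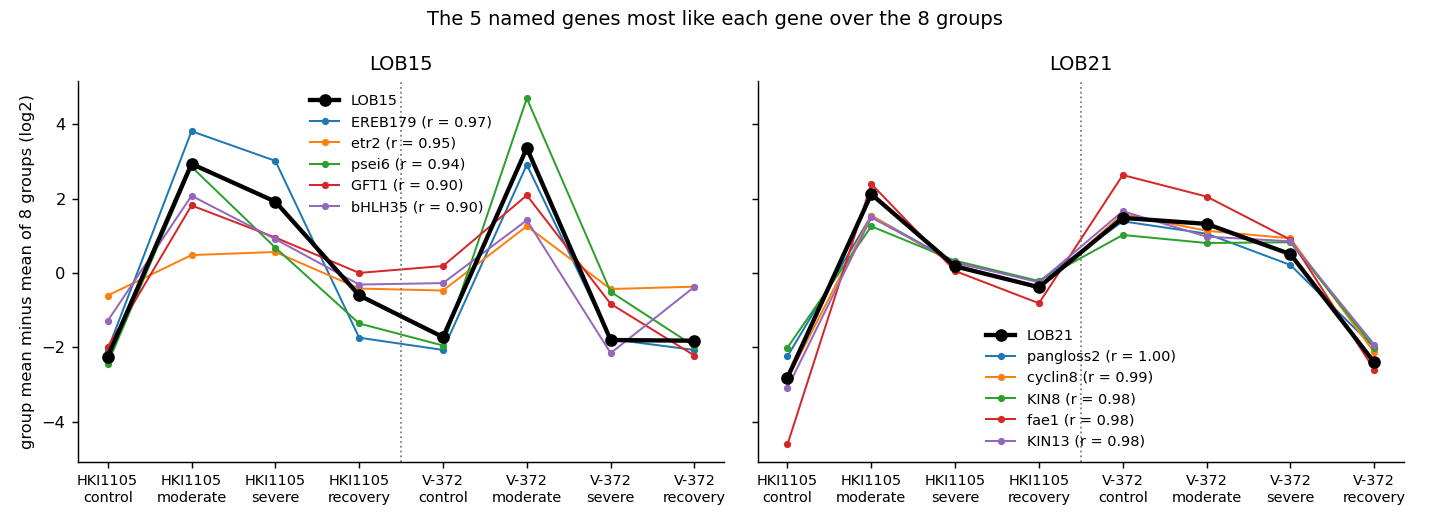
Group means (log2, each gene centred on its mean over the 8 groups, vertical axis) of LOB15 (left) and LOB21 (right) in black, with the 5 named genes of the highest Pearson correlation in colour; the dotted line separates HKI1105 from V-372. The genes beside LOB15 are high at moderate stress in both lines (etr2 is at 10.36 in HKI1105 and 11.14 in V-372). At severe stress in HKI1105 etr2 is at 10.45. Those beside LOB21 share the low values in the HKI1105 control and in V-372 at recovery.

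Genes of hormone, growth, root and low-oxygen processes were read from lists of names as background. Whether LOB15 or LOB21 acts on any of them was not tested. The median change over all probe sets was 0 in each comparison. The counts of the lists stand beside large shares of all probe sets, and no test of a list was made. No share of all probe sets is given for the counts against the V-372 control. Those counts therefore cannot tell a turn of a list from a turn of the whole array. At moderate stress in HKI1105 26.5% of all probe sets rose and 27.5% fell, and at severe stress 27.1% and 23.2%. In V-372 these shares were 14.0% and 19.1% at moderate stress, 17.5% and 31.7% at severe stress, and 23.1% and 23.4% at recovery. The auxin transport list had 1 named probe set, aic1 (also aux1), an auxin influx carrier. The rises in HKI1105 were 5.33 (adjusted p = 3.36e-08) for moderate stress, 4.53 for severe stress and 4.01 for recovery. In V-372 it changed by −0.01 and 0.19 in the stress stages (adjusted p = 1 and 0.568) and fell by 2.91 at recovery (adjusted p = 2.57e-06). Its HKI1105 control minus its V-372 control was −4.65, a gap close to that of LOB21. Against the V-372 control, aic1 in HKI1105 was 0.67 higher at moderate stress (adjusted p = 0.02), differed by −0.12 at severe stress (adjusted p = 0.834) and was lower at recovery (−0.64, adjusted p = 0.0236).

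The auxin response list had 6 probe sets. In HKI1105 at moderate stress 1 of them rose and 4 fell, and V-372 had 0 up and 4 down at that stage. By severe stress the counts were 2 up and 4 down for HKI1105, with 4 up and 2 down for V-372. IAA12, an Aux/IAA repressor of auxin response, was up by 4.94 in HKI1105 (adjusted p = 1.47e-07) under moderate stress, and in V-372 at recovery it fell by 4.14 (adjusted p = 7.33e-07). ARF16, an auxin response factor, fell by 4.35 at moderate stress in HKI1105 (adjusted p = 6.75e-08) and by 1.97 at severe stress in V-372 (adjusted p = 1.42e-05). With the V-372 control in place of the HKI1105 control, 1 of the 6 was higher and 5 were lower at moderate stress, and IAA12 was lower (−1.14, adjusted p = 0.00301) while ARF16 was again lower (−2.50). The auxin-binding protein abp1 rose by 2.15 at severe stress in V-372 (adjusted p = 1.55e-06).

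The cytokinin list had 22 probe sets. In HKI1105 at moderate stress 3 rose and 16 fell (median −1.24), and in V-372 at severe stress 4 rose and 12 fell (median −0.49). The response regulator crr1 fell by 9.10 in the former and fell by 4.51 in the latter. The receptor HK1 rose by 1.29 at moderate stress in HKI1105. The cytokinin oxidase cko3, which breaks cytokinins down, fell by 5.31 in HKI1105 at moderate stress. Its rise in V-372 was 2.91 at that stage and 4.94 at severe stress. With the V-372 control in place of the HKI1105 control, 3 of the 22 rose and 14 fell at moderate stress, and HK1 was lower (−0.74, adjusted p = 4.38e-05). The fall of cko3 under moderate stress then shrank to −0.74 (adjusted p = 0.00571). For severe stress in HKI1105, cko3 turned with the control, from −1.97 against its own to 2.61 (adjusted p = 2.21e-06).

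Of 17 expansin probe sets, which encode proteins that loosen cell walls, 13 rose and 0 fell in HKI1105 at moderate stress (median 4.59). In V-372 at that stage 9 rose and 1 fell (median 0.34). At recovery in V-372 0 rose and 12 fell (median −2.24). The beta-expansin expB3 rose by 9.86 at moderate stress in HKI1105. At severe stress in V-372 5 rose and 3 fell, with expB7 up by 5.20. There expB4 fell by 4.20, while it had risen by 5.97 in HKI1105 at moderate stress. Against the V-372 control, 10 expansin probe sets of HKI1105 rose at moderate stress and 1, expB4, fell (−0.59, adjusted p = 0.00382). At severe stress in HKI1105 9 rose and 0 fell against its own control, and 4 rose and 5 fell against the V-372 control. At recovery in HKI1105 8 rose and 0 fell against its own control, where 26.8% of all probe sets rose. Against the V-372 control 0 rose and 10 fell at recovery.

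The counts of the 18 cell cycle probe sets depended on the control used, as did those of other lists such as the expansins. In HKI1105 at moderate stress 12 rose and 3 fell (median 1.53), against 5 that rose and 0 that fell when the V-372 control was used. The cyclin cyc3 rose by 4.99 and RBR1, a retinoblastoma-related regulator of cell cycle entry, fell by 0.88 at moderate stress in HKI1105, and neither was called against the V-372 control (−0.25 and 0.13, adjusted p = 0.661 and 0.42). In V-372 1 rose and 10 fell at severe stress (median −0.61), with RBR1 up by 0.52. MCM6, a subunit of the DNA replication helicase, fell by 1.24 there.

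The KNOX list with rs2 had 5 probe sets, of which 3 rose and 1 fell in HKI1105 at moderate stress, while 1 rose and 2 fell in V-372 at severe stress. Against the V-372 control 2 of the 5 rose and 2 fell in HKI1105 at moderate stress. The KNOX gene knox7 fell by 0.63 in the former and rose by 0.67 in the latter, and lg3 fell by 3.38 in the latter. The root development list held 3 probe sets and no gene of crown roots. Of these, bk2, a COBRA-like protein of cell wall cellulose, rose by 1.91 in HKI1105 at moderate stress, while it fell by 3.43 in V-372 at severe stress. The rise of bk2 turned with the control, to −1.08 against the V-372 control (adjusted p = 2.06e-06). Of 16 low-oxygen probe sets, 6 rose and 5 fell in HKI1105 at moderate stress, and 7 rose and 2 fell against the V-372 control. In V-372 9 rose and 2 fell at that stage, against 4 up and 8 down at severe stress. The pyruvate decarboxylase pdc1, an enzyme of ethanol fermentation, rose at moderate stress by 7.46 in HKI1105 and 4.70 in V-372, a stage at which LOB15 rose in both lines, and it was 2.51 higher in HKI1105 against the V-372 control. The haemoglobin Hb2 fell by 8.05 at moderate stress in HKI1105. At severe stress in V-372 the sucrose synthase sus2 rose by 3.67 and the haemoglobin Hb fell by 5.02.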

How the data were processed

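Total RNA from roots was hybridised to the Affymetrix GeneChip Maize Genome Array, 1 colour. The log2 values used are those deposited by the authors, who corrected background, normalised and summarised probes with GCRMA (version not given in the sources used here). All 17734 probe sets were kept, 113 Affymetrix controls among them, with no further scaling. Scanner files were not used here. Values near the floor limit what low levels can show, and the 2 arrays per group limit the precision.

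Groups came from the sample labels. One mean per group was fitted with limma 3.58.1 in R 4.3.3 over 16 arrays (8 residual and 0.462 prior degrees of freedom). Each of 19 contrasts was tested two-sided with Benjamini-Hochberg adjustment over all probe sets and called at an adjusted p under 0.05. The thresholds of the methods (p of 0.001 or less and 5-fold) were a second rule. The code was tested on simulated data with known changes. A bound ("at least") sets a group whose arrays all lay within 1 unit of the lowest value at that limit.

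Of 1453 probe sets in the platform annotation, 1377 matched RefSeq (Zm-B73-REFERENCE-NAM-5.0), and gene models in the study's lists named 2395 more, of which 1670 matched. No sequence or coordinate is given, since the files name no genome build. Named were every LOB probe set, from each of 9 lists the largest called rise and fall in HKI1105 at moderate stress, the same in V-372 at severe stress, and the 5 named genes most like each LOB probe set. One gene that this rule picks is not reported here. Members and lists were chosen with earlier results of these data known, so no p is adjusted over a list. Names that matched a list by letters alone were left out of it. Alternatives were other scalings, filters and variance models, each line alone, each array left out, a replicate block and the V-372 control in place of the HKI1105 control.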

Additional observations from a re-analysis of the deposited data

Results flagged for a closer look

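The changes that differed between HKI1105 and V-372 by a test of the difference itself are given as HKI1105 minus V-372, on the log2 scale, from the limma interaction. For LOB15 they were 4.25 at severe stress, 1.75 at recovery, 4.15 from moderate to severe stress and −2.50 from severe stress to recovery. For LOB21 they were 5.10 at moderate stress, 3.97 at severe stress, 6.32 at recovery, −1.13 from moderate to severe stress and 2.35 from severe stress to recovery. For the shared probe set of LOB21 they were 4.35 at moderate stress, 2.0 at severe stress, 2.62 at recovery, a fitted value that uses a V-372 recovery level near the floor and is no exact size, and −2.34 from moderate to severe stress. The values against control contain the HKI1105 control, whose added RNA had a median of 9.79 against 6.16 to 7.41 in the other groups, and the part of this in the differences was not tested. The steps between stages contain no control array.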

How the results depend on the processing

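No called value of LOB15 or of the shared probe set changed sign under any setting run, and 2 of LOB21 did. Against the V-372 control, chosen after seeing the data, LOB21 in HKI1105 was 0.64 (adjusted p = 0.0603) at moderate stress, −1.30 at severe stress and −1.86 at recovery, and the shared probe set was −1.03 at severe stress and −1.55 at recovery, both now called. Over all lists but the LOB list, 29 in place of 40 probe sets then rose in HKI1105 at moderate stress and 25 in place of 29 fell. At severe stress 22 in place of 37 rose and 28 in place of 24 fell. At recovery 16 in place of 35 rose and 36 in place of 24 fell. No share of all probe sets against the V-372 control is given beside these counts. Under the thresholds of the methods the calls over 19 comparisons went from 13 to 9 for LOB15, 16 to 10 for LOB21 and 12 to 7 for the shared probe set. Among changes from control, LOB15 at recovery in HKI1105 (1.65), the shared probe set at severe stress in V-372 (−1.44) and LOB21 at severe stress in V-372 (−0.98) were not called. With the arrays of 1 line alone, which leaves fewer arrays, the step of LOB15 from moderate to severe stress in HKI1105 (−1.02, adjusted p = 0.159) and that of the shared probe set from severe stress to recovery in V-372 (−1.14 as fitted, with recovery near the floor, adjusted p = 0.0796) were not called. The shared probe set at moderate stress in V-372 was called with quantile normalization (−0.94, adjusted p = 0.0483) and without dim probe sets (−0.83, adjusted p = 0.041). The cause of the last 2 was not tested.

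With 1 array left out at a time, no called LOB value changed sign, while some uncalled values near 0 did. The ranges of the results whose call changed were −1.41 to −0.63 for LOB15 from moderate to severe stress in HKI1105, −0.93 to −0.12 for LOB15 between the lines at control and 1.07 to 1.37 at recovery, −1.23 to −0.42 for the shared probe set at moderate stress in V-372, −1.32 to −0.95 from severe stress to recovery in V-372 and 0.86 to 1.18 between the lines at recovery (both as fitted, with V-372 recovery near the floor), and for LOB21 −1.19 to −0.77 at severe stress in V-372, −0.88 to −0.75 from moderate to severe stress in V-372, 0.74 to 0.87 between the lines at moderate stress and −1.21 to −1.04 for the difference in the moderate to severe step. Same-numbered arrays of 28 pairs of groups correlated at −0.184 to 0.233 in their deviations, with 3 of the 28 above 0.1. These values cannot show whether the replicate numbers pair the samples. With the replicate block LOB15 at moderate stress in HKI1105 was 5.19 (adjusted p = 2.5e-06), and no LOB call changed.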
